A study of Mus musculus with 6 samples.

Results

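Interferon-stimulated genes are genes whose transcription rises when a cell is exposed to interferons. A fixed list of 35 such genes, antigen presentation genes included, was taken by gene symbol from a table of 23337 genes, and all 35 were found in it. The rule used names and no measured value, but the list was drawn up with earlier results of these data known. The table holds RNA-seq of sorted mouse cardiomyocytes (CMs) and was made to ask what raised serum response factor (SRF) does to the transcripts of maturing CMs. Both groups were wildtype mice injected at P1 with AAV9 at 5e8 vg per g, a dose that transduces CMs as a mosaic, and their CMs were collected at P14. In SRF-OE the vector carried SRF joined to GFP through a 2A peptide, and in GFP it carried GFP alone, so both groups had a viral vector and GFP. The cardiac troponin T promoter of the vector drives the transgene in CMs. Hearts were dissociated by collagenase perfusion, GFP+ cells were sorted, and polyadenylated RNA was amplified as full-length cDNA before single-end sequencing. The labels do not say whether libraries of a group came from separate hearts, so p-values measure the spread between these libraries, which may be technical in part.

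Interferons signal through cell surface receptors and Janus kinases to STAT proteins. Type I interferons (alpha and beta) act through a complex that holds STAT2 and IRF9 and binds the interferon-stimulated response element (ISRE), and type II interferon (gamma) acts mainly through the gamma-activated site (GAS). The induced genes encode sensors of viral RNA, antiviral effectors, GTPases that attack intracellular parasites, and the machinery that displays peptides on MHC class I. In the heart the response is best known from viral infection of the myocardium.

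The promoters of the genes were read in windows from 250 bases before to 50 bases after the start of each gene, from RefSeq on GRCm38.p6, and 30 of the 35 genes had a window. Mx1, Mx2, Oas2, Usp18 and Parp14 had none. The ISRE core was searched as GAAANNGAAA on both strands. It lay in 17 of the 30 windows (56.7%), against 3.99% of the 27025 promoters of the same length. The GAS was searched as TTCNNNGAA, which reads the same on both strands. It lay in 11 of the 30 windows (36.7%), against 9.55% of all promoters. In Bst2 and Ifitm3 a GAS match shares bases with an ISRE match. The CArG box, the sequence that SRF binds, lay in 0 of the 30 windows, against 1.81% of all promoters. These are matches of letters, which say nothing of whether a factor was bound.

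The ISRE stretches of 6 genes are shown because these genes span the ways the list varied between the libraries, as given further on. B2m passed the test in 4 libraries, and Gbp3 was higher in both SRF-OE libraries than in every GFP library. Igtp was lower in both SRF-OE libraries, Stat2 encodes a subunit of the complex that binds the motif, and Ifit1 and Isg15 were highest in 1 GFP library. Each line is the strand of the gene, 5′ to 3′, with the matched letters in capitals. Where the match is on the opposite strand the capitals read TTTCNNTTTC.
B2m, chr2:122147538-122147567, plus strand: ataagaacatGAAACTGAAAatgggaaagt
Igtp, chr11:58199512-58199541, plus strand: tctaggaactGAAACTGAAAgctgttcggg
Isg15, chr4:156200871-156200900, minus strand: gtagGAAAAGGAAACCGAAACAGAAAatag
Ifit1, chr19:34640785-34640814, plus strand: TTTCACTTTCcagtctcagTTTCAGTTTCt
Gbp3, chr3:142559992-142560021, plus strand: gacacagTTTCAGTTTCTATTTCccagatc
Stat2, chr10:128270266-128270295, plus strand: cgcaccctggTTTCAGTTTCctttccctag
The match nearest the start began 34 bases before it in Igtp, 39 in Gbp3, 66 in Isg15, 85 in Ifit1, 139 in B2m and 222 in Stat2. The letters most frequent among the matches of the members, GAAACTGAAA or their complement, occur in B2m, Igtp, Ifit1, Gbp3 and Stat2. They occur in 9 of the members in all, against 0.263% of all promoters, an excess that follows in part from how they were picked. Isg15 instead holds 3 overlapping matches. B2m and Igtp hold the same 10 bases and had log2 fold changes of opposite sign, though that of B2m over the 5 libraries (0.25, SE 0.46) was smaller than its SE.

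**Figure D1:**
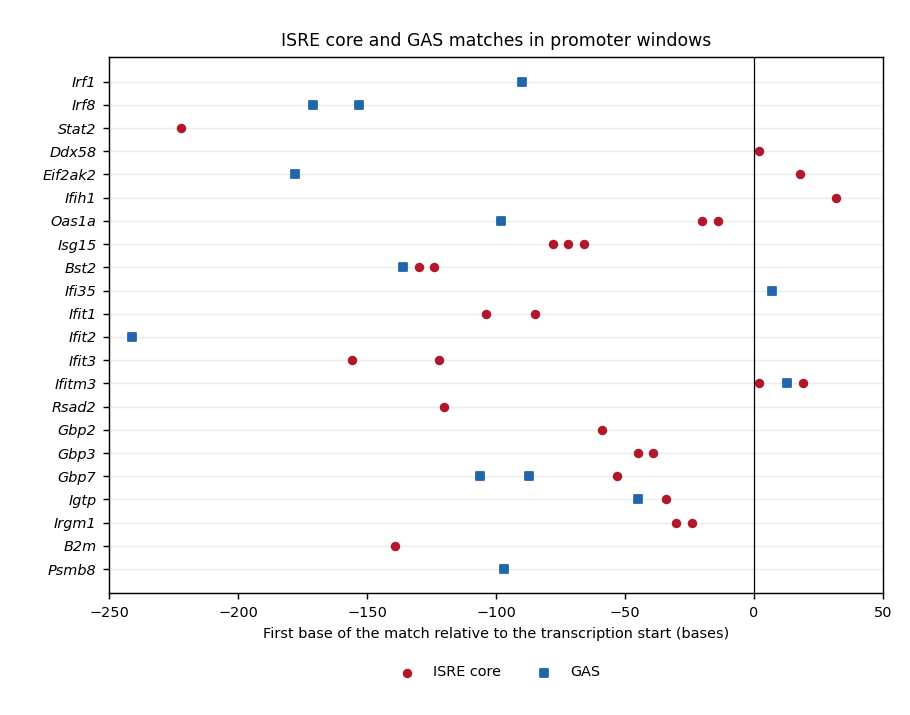
Each row is 1 of the 22 interferon-stimulated genes with a match, and the horizontal axis is the distance in bases of the first base of the match from the start of the gene, which is the vertical line at 0. Circles are ISRE core matches and squares are GAS matches, and most ISRE matches lie before the start, while those of Ddx58, Eif2ak2, Ifih1 and Ifitm3 lie after it.

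The labels list 6 libraries, of which 5 could be used. Their titles are OE2 and OE3 for SRF-OE and GFP1, GFP2 and GFP3 for GFP, and the column headed for the first SRF-OE library holds gene lengths in place of counts. No name in the header stands for the lengths, so the names may be displaced by 1 column against the values. Each column of counts would then belong to another library than its name says, the column headed GFP1 would hold an SRF-OE library, and the table would hold 3 SRF-OE and 2 GFP libraries. The sources used here do not settle this, the names were used as they stand, and every library name carries this doubt. After such a displacement the columns headed OE2 and OE3 would still hold SRF-OE libraries, and those headed GFP2 and GFP3 still GFP libraries. Every log2 fold change over the 5 libraries carries the doubt in its groups as well. Total counts per library ranged from 14137433 to 23159631. Srf was at 360 and 748 CPM in OE2 and OE3 and at 67.2 and 85.0 CPM in GFP2 and GFP3, but at 338 CPM in the library labelled GFP1, so that library goes against its label in the targeted gene. The log2 difference in Srf between the groups was 1.76 (SE 0.71, adjusted p = 0.36, edgeR's quasi-likelihood test with Benjamini-Hochberg adjustment). With that library set aside it was 2.87 (SE 0.37, adjusted p = 0.044, same test). The library was set aside for its Srf level, so the larger difference and the smaller p follow in part from that choice. The comparison is therefore given for the 5 libraries as labelled and, for the list and for the genes whose values moved with it, for the 4 left without the library labelled GFP1. Levels are CPM (read counts of a gene scaled to the size of the library) with TMM factors, and a log2 fold change is SRF-OE over GFP with its standard error (SE). A gene was called where its adjusted p, taken over every gene tested, was under 0.05.

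All 35 genes had reads, at low levels. On the scale per length (mean RPKM over the 5 libraries), the transcript levels were led by B2m, the invariant chain of MHC class I, at 80.9 RPKM. The antiviral membrane protein gene Ifitm3 followed at 40.8 RPKM, and the class I heavy chains H2-D1 and H2-K1 had 36.9 and 22.9 RPKM. The ranges of these neighbours over the libraries overlapped, so their order is not settled, but H2-K1 at its lowest (18.4 RPKM) was above the next gene, Ifi35, at its highest (15 RPKM). The lowest level was that of Mx1, at 0.0429 RPKM with 1 to 5 reads per library, and Mx1 was left out of the tests by the filter on low counts. H2-D1 and H2-K1 are close paralogs, so the division of reads between them is uncertain.

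With the 5 libraries as labelled, 34 of the 35 genes were tested among 13754 genes, and 0 were called higher and 0 lower in SRF-OE, as for all genes tested (0% in each direction). An unadjusted p under 0.05 was reached by 1 gene with higher levels, Ifit2, against 6.35% of all genes, and by 1 with lower levels, Igtp, against 7.59%. DESeq2 gave none of the 35 genes an adjusted p in these libraries. The median log2 fold change of the 34 genes was 0.23, with a range from -0.74 to 0.90, and that of all genes was 0.03. Of the 34, 27 had a positive log2 fold change, against 53.3% of all genes. The levels of both SRF-OE libraries lay above all 3 GFP libraries for 4 genes (11.8% of the 34, against 16.1% of all genes), namely Ifit2, Ifih1, Gbp3 and Eif2ak2. They lay below for 1 gene, Igtp (2.94%, against 17.3% of all genes).

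With the library labelled GFP1 left out, 33 of the genes were tested among 13397, since Oas1a also fell under the filter. Called higher were 2 of them, B2m and Ifit2, or 6.06% against 1.98% of all genes, and 0 were called lower, against 0.97%. An unadjusted p under 0.05 was reached by 11 genes with higher levels (33.3%, against 14.4% of all genes) and by 1 with lower levels, Igtp (against 14%). The median log2 fold change was 0.64, with a range from -0.75 to 1.66, beside 0.04 over all genes, and 28 of the 33 were positive, against 53.2% of all genes. Both SRF-OE libraries lay above both remaining GFP libraries for 19 genes (57.6%, against 30.8% of all genes) and below them for 1 gene, Igtp (against 30.2%). Both calls stood near the threshold, with an adjusted p of 0.0499 for B2m and 0.0473 for Ifit2 by edgeR's quasi-likelihood test, and both were lost with upper quartile scaling and with at least 10 counts in every library (0 genes called in each). DESeq2 called 6 genes higher in these 4 libraries, B2m, Gbp3, H2-D1, Ifih1, Ifit2 and Ifitm3, against 6.31% of all genes with an adjusted p, and 0 lower, against 6.16%.

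**Figure D2:**
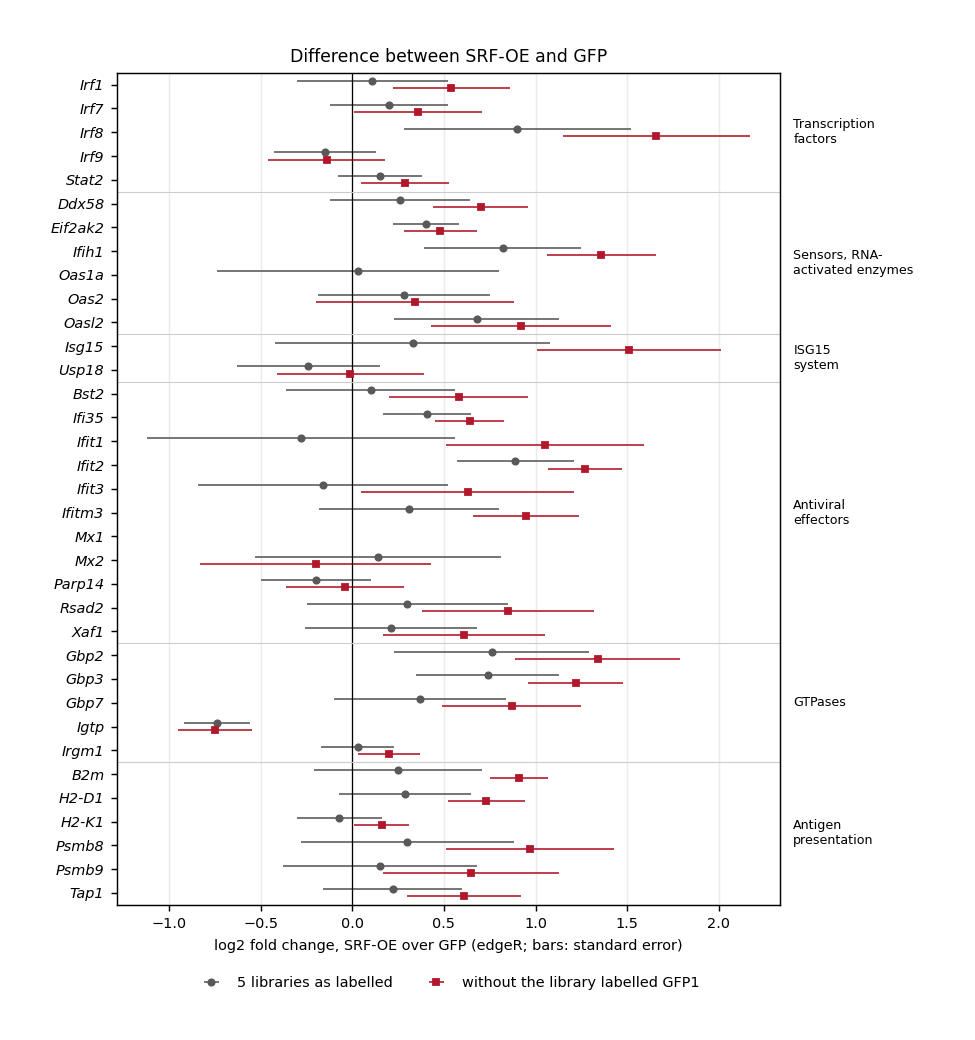
The horizontal axis is the log2 fold change of SRF-OE over GFP from edgeR, and the bars are its standard error. Grey circles are the 5 libraries as labelled and red squares the 4 without the library labelled GFP1. Mx1 was tested in neither set and Oas1a only in the 5 libraries. The range runs from -0.74 to 0.90 for the circles and from -0.75 to 1.66 for the squares, and Igtp is the gene with its whole bar below 0 in both.

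The transcription factors of the list relay the interferon signal to DNA. Irf8, a factor best known from macrophages and dendritic cells, had 3.70 CPM in OE2 and 1.97 CPM in OE3, against 2.71 CPM in the library labelled GFP1, 1.10 CPM in GFP2 and 0.631 CPM in GFP3. The groups overlapped only through the library labelled GFP1. Its log2 fold change was 0.90 (SE 0.62, adjusted p = 0.51, edgeR) and, without that library, 1.66 (SE 0.51, adjusted p = 0.11), the largest of the list in both sets. Irf1, an activator of MHC class I and of gamma interferon targets, had 12.6 and 7.16 CPM in OE2 and OE3, 13.7 CPM in the library labelled GFP1 and 6.79 and 6.78 CPM in GFP2 and GFP3. The higher levels were thus those of 1 library in each group, and the log2 fold change was 0.11 (SE 0.41) over the 5 libraries and 0.54 (SE 0.32) over the 4. Irf7, which drives type I interferon genes themselves, ranged from 2.68 to 4.39 CPM, with a log2 fold change of 0.20 over the 5 libraries and 0.36 over the 4.

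Stat2 and Irf9, whose products belong to the type I complex, differed little. Stat2 had 15.6 and 11 CPM in SRF-OE against 14.2, 11.4 and 10.3 CPM in the library labelled GFP1, GFP2 and GFP3, a log2 fold change of 0.15 (SE 0.23), or 0.29 (SE 0.24) over the 4 libraries. Irf9 had 15.2 and 8.21 CPM against 13, 12 and 14.0 CPM, a log2 fold change of -0.15 (SE 0.28), or -0.14 (SE 0.32) over the 4 libraries. OE2 was the highest of the 5 libraries for both genes, and OE3 was the lowest for Irf9. The exons of Irf9 overlap those of Rnf31 on the same strand, so reads of the overlap are uncertain.

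Sensors of viral RNA and enzymes switched on by it make up 6 genes, and the lowest library was GFP2 or GFP3 in all 6 (against 44% of all genes). Ifih1 encodes MDA5, which senses long double-stranded RNA. It had 5.89 CPM in OE2 and 4.98 CPM in OE3, against 4.89 CPM in the library labelled GFP1, 1.97 CPM in GFP2 and 2.29 CPM in GFP3. The groups did not overlap, but OE3 and the library labelled GFP1 differed by 11 reads (114 and 103). The log2 fold change was 0.82 (SE 0.43, adjusted p = 0.41, edgeR) and 1.36 without that library (SE 0.30, adjusted p = 0.062). Ddx58, which encodes the sensor RIG-I, had 12.2 and 9.17 CPM in SRF-OE, 13.4 CPM in the library labelled GFP1 and 5.78 and 7.49 CPM in GFP2 and GFP3. The library labelled GFP1 was the highest there, and the log2 fold change moved from 0.26 (SE 0.38) to 0.70 (SE 0.26) without it.

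Eif2ak2 encodes PKR, the kinase that halts translation on binding double-stranded RNA. Its levels were 12.7 and 11.6 CPM in SRF-OE and 10.1, 8.44 and 9.07 CPM in the library labelled GFP1, GFP2 and GFP3. The groups did not overlap, and the SE of the difference over the 5 libraries was, with that of Igtp, the lowest of the list. Its log2 fold change was 0.40 (SE 0.18, adjusted p = 0.38, edgeR), and the 4 libraries gave 0.48 (SE 0.20, adjusted p = 0.18). The oligoadenylate synthetases, which activate RNase L, were low. Oasl2 ranged from 1.38 to 4.91 CPM, Oas2 from 0.596 to 1.21 CPM and Oas1a from 0.237 to 0.807 CPM. Oas1a rested on 3 to 17 reads per library and its log2 fold change was 0.03 (SE 0.77), so a difference was not detectable at this depth.

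ISG15 is a ubiquitin-like protein that is attached to other proteins, and USP18 is the protease that removes it and that damps receptor signalling. Isg15 had 24 and 26 reads in OE2 and OE3, 43 in the library labelled GFP1, 9 in GFP2 and 6 in GFP3, or 1.39, 1.14, 2.04, 0.413 and 0.473 CPM. The library labelled GFP1 was above both SRF-OE libraries, and GFP2 and GFP3 were below them. Its log2 fold change was 0.33 (SE 0.75, adjusted p = 0.84, edgeR) and 1.51 (SE 0.50, adjusted p = 0.12) without that library. Usp18 had 3.46 and 2.10 CPM against 4.23, 2.38 and 3.23 CPM, with overlapping groups and a log2 fold change of -0.24 (SE 0.39) or, without the library labelled GFP1, -0.01 (SE 0.40).

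Among the 11 antiviral effectors, Ifit2 differed most between the groups. IFIT proteins bind foreign RNA and block its translation. Ifit2 lies on the plus strand of chromosome 19 of GRCm38, from 34550694 to 34576419. It had 17.5 CPM in OE2 and 21.5 CPM in OE3, against 15.3 CPM in the library labelled GFP1, 8.39 CPM in GFP2 and 7.81 CPM in GFP3. Both SRF-OE libraries were above all GFP libraries, with the library labelled GFP1 nearer to them than to GFP2 and GFP3. The log2 fold change was 0.89 (SE 0.32, adjusted p = 0.35, edgeR) and 1.27 (SE 0.20, adjusted p = 0.0473) without that library. It was positive in each of the 5 fits that left out 1 library, from 0.72 to 1.27.

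The neighbours of Ifit2 on chromosome 19 did not share its order. Ifit1 had 2.02 and 1.31 CPM in OE2 and OE3, 4.32 CPM in the library labelled GFP1, and 0.550 and 1.10 CPM in GFP2 and GFP3. Ifit3 had 0.982 and 1.31 CPM in SRF-OE, 2.28 CPM in the library labelled GFP1, and 0.458 and 1.10 CPM in GFP2 and GFP3. The library labelled GFP1 was the highest for both, with 91 and 48 reads, and the log2 fold changes of -0.28 (SE 0.84) for Ifit1 and -0.16 (SE 0.68) for Ifit3 turned to 1.05 (SE 0.54) and 0.63 (SE 0.58) without it. Neither passed the test in either set. The windows of Ifit1 and Ifit3 hold ISRE core matches, and that of Ifit2 holds a GAS match and none of the ISRE core.

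Ifitm3, whose product blocks the fusion of enveloped viruses with the cell, had 38.7 and 21.3 CPM in SRF-OE, 41.1 CPM in the library labelled GFP1 and 16.4 and 14.6 CPM in GFP2 and GFP3. Ifi35 had 16.6 and 20.4 CPM in SRF-OE, 18 CPM in the library labelled GFP1 and 12.5 and 11.3 CPM in GFP2 and GFP3. In both genes the libraries GFP2 and GFP3 were the lowest. Without the library labelled GFP1 the log2 fold changes were 0.95 (SE 0.29, adjusted p = 0.10, edgeR) for Ifitm3 and 0.64 (SE 0.19, adjusted p = 0.098) for Ifi35, and over all 5 libraries 0.31 and 0.41.

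Rsad2, the gene of viperin, had 17.7 CPM in OE2 and 16 CPM in the library labelled GFP1, and between 6.42 and 6.79 CPM in the other libraries. Bst2, the gene of tetherin, which holds budding viruses to the cell, had 9.87 CPM in OE2 and 10.6 CPM in the library labelled GFP1, and between 4.68 and 5.21 CPM in the others. Xaf1, a gene of apoptosis, had 4.27 and 4.04 CPM in the same pair of libraries and between 1.89 and 2.25 CPM elsewhere. For these 3 genes 1 library of each group was high, OE3 lay within or next to the range of GFP2 and GFP3, and the log2 fold changes were 0.30, 0.10 and 0.21 over the 5 libraries and 0.85, 0.58 and 0.61 over the 4. Parp14, an ADP-ribosyltransferase, ranged from 5.77 CPM in OE3 to 10.4 CPM in the library labelled GFP1, with a log2 fold change of -0.20 (SE 0.30), or -0.04 (SE 0.32) over the 4 libraries. Mx2, a GTPase that blocks viruses, had from 7 to 16 reads per library, the fewest in the library labelled GFP1 and the most in GFP3.

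The GTPases of the list act on vacuoles that hold parasites or bacteria, and their log2 fold changes had both signs, with 0 of the 5 past the threshold in either set of libraries. Gbp3 had 6.70 and 6.51 CPM in SRF-OE, 6.08 CPM in the library labelled GFP1 and 2.98 and 2.68 CPM in GFP2 and GFP3. The groups did not overlap, and the library labelled GFP1 was close to SRF-OE. The log2 fold change was 0.74 (SE 0.39, adjusted p = 0.41, edgeR) and 1.22 (SE 0.26, adjusted p = 0.061) without that library. Gbp2 had 7.45, 3.84, 5.46, 2.70 and 1.66 CPM in OE2, OE3, the library labelled GFP1, GFP2 and GFP3, and Gbp7 had 12.6, 6.47, 11.5, 4.40 and 6.07 CPM. The log2 fold changes of Gbp2 and Gbp7 were 0.76 and 0.37 over the 5 libraries and 1.34 and 0.87 over the 4, and neither passed the test. OE2 was the highest for all 3 guanylate-binding proteins (against 20% of all genes), and their promoter windows each hold an ISRE core match.

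Igtp, an immunity-related GTPase also named Irgm3, was the exception. Its gene lies on chromosome 11 of GRCm38, from 58199556 to 58207591. It had 10.2 CPM in OE2 and 9.26 CPM in OE3, against 15.9 CPM in the library labelled GFP1, 14.8 CPM in GFP2 and 18.1 CPM in GFP3. Both SRF-OE libraries were below all GFP libraries, and the library labelled GFP1 lay between GFP2 and GFP3. The log2 fold change was -0.74 (SE 0.18, unadjusted p = 0.005, adjusted p = 0.35, edgeR) over the 5 libraries and -0.75 (SE 0.20, adjusted p = 0.081) without the library labelled GFP1, so it did not pass the threshold in either set. Leaving out each library in turn gave between -0.81 and -0.66. Exons of Igtp overlap those of Irgm2 on the same strand, and Irgm2 was also lower, so the reads of the pair cannot be fully separated. Irgm1, a GTPase that regulates the others, had 16.3 and 14.7 CPM in SRF-OE and 18.6, 13.2 and 13.8 CPM in GFP, a log2 fold change of 0.03 (SE 0.20), or 0.20 (SE 0.17) over the 4 libraries.

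The 6 antigen presentation genes make the peptides, move them into the endoplasmic reticulum and display them. Each of the 6 was highest in the library labelled GFP1 (against 10% of all genes), and each was lowest in GFP2 or GFP3 (against 44%). B2m lies on chromosome 2 of GRCm38, from 122147686 to 122153083. It had 70.3 CPM in OE2 and 83.2 CPM in OE3, against 112 CPM in the library labelled GFP1, 44.5 CPM in GFP2 and 37.3 CPM in GFP3. The SRF-OE libraries lay between the library labelled GFP1 and the other GFP libraries. This gave a log2 fold change of 0.25 (SE 0.46, adjusted p = 0.81, edgeR), and 0.91 (SE 0.16, adjusted p = 0.0499) without that library.

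H2-D1 had 85.6 and 58.6 CPM in SRF-OE, 89.7 CPM in the library labelled GFP1 and 47.2 and 39.7 CPM in GFP2 and GFP3. H2-K1 had 38.5 and 34.8 CPM in SRF-OE, 50 CPM in the library labelled GFP1 and 35.3 and 30.3 CPM in GFP2 and GFP3. Without the library labelled GFP1 the log2 fold change was 0.73 (SE 0.21, adjusted p = 0.093, edgeR) for H2-D1 and 0.16 (SE 0.15, adjusted p = 0.49) for H2-K1. Psmb8 and Psmb9, subunits of the immunoproteasome, ranged from 2.13 to 6.89 CPM and from 0.868 to 2.71 CPM, and Tap1, a peptide transporter subunit, from 2.76 to 6.51 CPM. Psmb9 and Tap1 overlap on opposite strands, and strand was not given for the counting, so reads there are uncertain. None of these 3 passed the test in either set, with log2 fold changes of 0.30, 0.15 and 0.22 over the 5 libraries and 0.97, 0.65 and 0.61 over the 4.

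**Figure D3:**
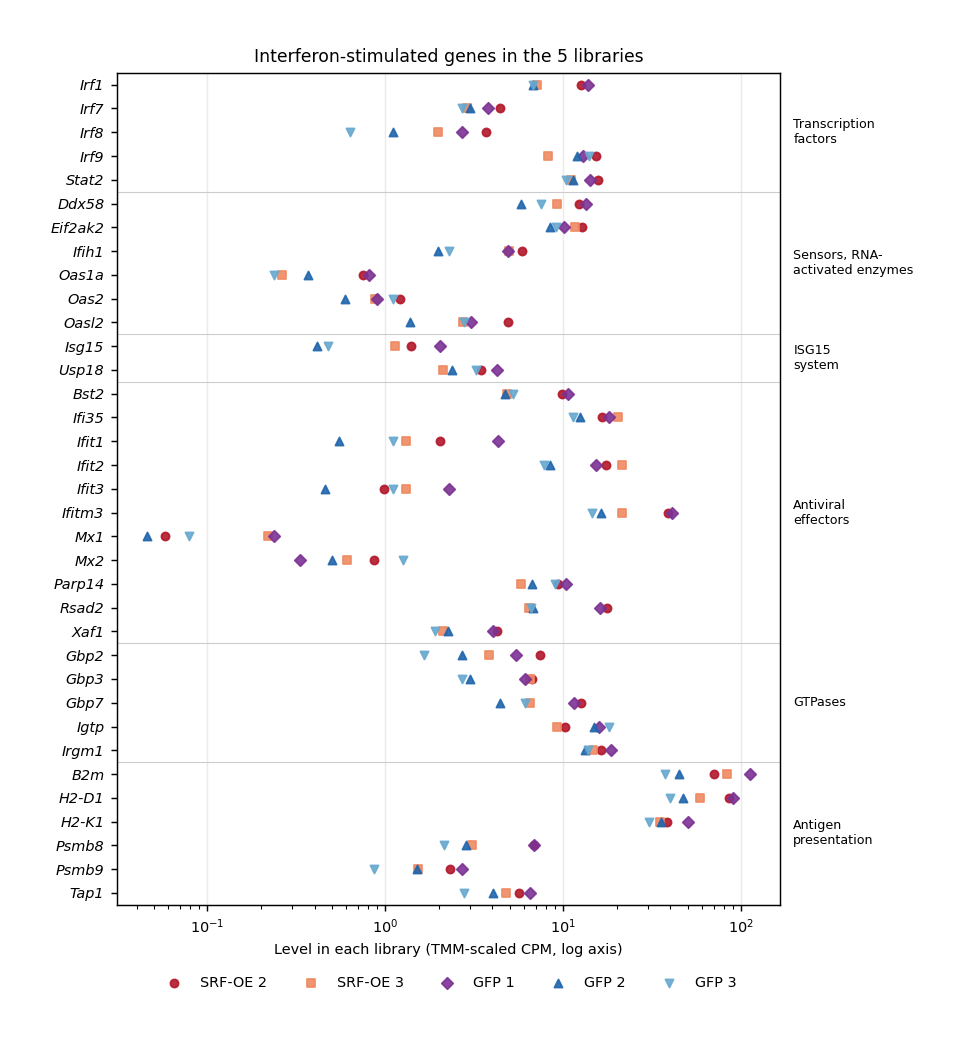
Each row is an interferon-stimulated gene, grouped by role, and the horizontal axis is its level in TMM-scaled CPM on a log axis, with 1 point per library. SRF-OE 2 and SRF-OE 3 are OE2 and OE3, and GFP 1 is the library labelled GFP1. The blue triangles of GFP2 and GFP3 are the lowest points for 28 of the 34 tested genes, and the purple diamonds of the library labelled GFP1 are among the highest.

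The order of the libraries was alike across much of the list. The library labelled GFP1 was above both GFP2 and GFP3 for 30 of the 34 tested genes (88.2%), against 40.5% of all genes, and above both SRF-OE libraries for 18 (52.9%, against 28.5%). It was the highest library for 17 genes (50%, against 10% of all genes) and OE2 for 13 (38.2%, against 20%). The lowest was GFP2 or GFP3 for 28 (82.4%, against 44% of all genes). OE2 was above OE3 for 30 genes (88.2%), against 49.8% of all genes, with a median log2 ratio of 0.48. The median log2 ratio of the library labelled GFP1 to the mean of GFP2 and GFP3 was 0.90, beside 0.00 for all genes. OE2 was above both GFP2 and GFP3 for 31 genes (91.2%, against 43% of all genes) and OE3 for 20 (58.8%, against 42.6%). Summed over the 35 genes, the level was 474 CPM in OE2, 377 CPM in OE3, 535 CPM in the library labelled GFP1, 288 CPM in GFP2 and 276 CPM in GFP3. Without B2m, H2-K1 and H2-D1 the sums were 280, 200, 283, 161 and 169 CPM in the same order. Over the 5 libraries, the sums within each group thus differed by more than the means of the groups did. In the 4 libraries both SRF-OE sums were above both GFP sums. Over the 35 genes the means of the groups then differed by more than the sums within either group. Without B2m, H2-K1 and H2-D1 they did not, since the sums of OE2 and OE3 lay further apart than the means. These genes share libraries and reads, so the counts describe 5 libraries and not 34 separate results.

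Genes whose windows hold an ISRE core match (17) had a median log2 fold change of 0.26, and those with a window but no match (13) one of 0.22. Without the library labelled GFP1 the medians were 0.86 over 16 genes and 0.64 over 13. The genes with and without the motif thus had like medians over the 5 libraries, and both were above the median of all genes in both sets.

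Markers of other cell types varied between the libraries as well. The 16 endothelial markers summed to 1730 CPM in OE2, 707 CPM in OE3, 1430 CPM in the library labelled GFP1, 701 CPM in GFP2 and 658 CPM in GFP3. Pecam1, 1 of these markers, had 121, 46.3, 90.6, 44.4 and 49.3 CPM in that order. All 16 were higher in OE2 than in OE3 (against 49.8% of all genes), and 15 of the 16 were highest in OE2 (93.8%, against 20%). Of the 34 tested interferon-stimulated genes, 30 were also higher in OE2 than in OE3. OE3 was above both GFP2 and GFP3 for 6 of the 16 endothelial markers (37.5%), near the 42.6% of all genes.

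The 22 leukocyte markers summed to 63.2 CPM in OE2, 25.7 CPM in OE3, 53.6 CPM in the library labelled GFP1, 25.5 CPM in GFP2 and 19.9 CPM in GFP3. Their levels were low, with 7 of the 22 under 1 CPM in every library and 0 of them without reads in all 5. Ptprc (CD45), present on nearly all leukocytes, ranged from 1.04 to 1.74 CPM and was highest in GFP2. The macrophage markers Csf1r, Adgre1 and Cd68 were highest in OE2, at 8.95, 2.54 and 2.77 CPM, and in the library labelled GFP1 they had 7.65, 2.28 and 2.14 CPM. In GFP2 the same genes had 4.08, 1.01 and 0.734 CPM and in GFP3 2.52, 1.5 and 1.26 CPM. OE3 had 5.98, 0.655 and 1.00 CPM, so that Adgre1 was lowest there.

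The 11 fibroblast markers summed to 1060, 663, 650, 466 and 405 CPM in OE2, OE3, the library labelled GFP1, GFP2 and GFP3, and the 8 smooth muscle and pericyte markers to 654, 643, 694, 527 and 551 CPM. Each of the 11 fibroblast markers was above GFP2 and GFP3 in both SRF-OE libraries, against 30.8% of all genes tested in the 4 libraries. The 9 CM markers, those of the labelled cell type, summed to 96900, 89200, 100000, 124000 and 145000 CPM. Their sum was lowest in the 3 libraries in which the sum of the interferon-stimulated genes was highest. Taken singly, 7 of the 9 were highest in GFP2 or GFP3 (77.8%, against 42% of all genes). The other 2 were highest in OE2 (22.2%, against 20%). In bulk RNA, fewer cells of a type and less RNA per cell cannot be told apart. The part that RNA of other cell types had in the levels of the interferon-stimulated genes was not tested.

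**Figure D4:**
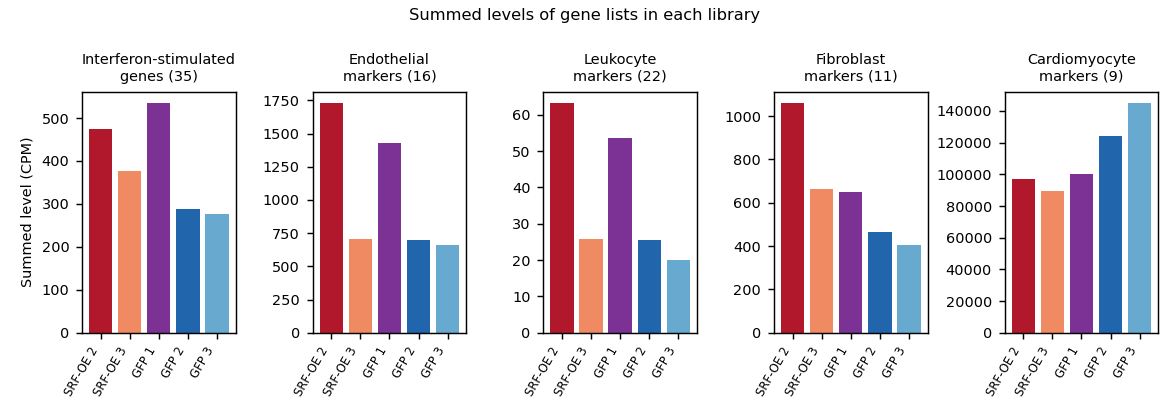
Bars give the summed level (CPM, linear axis from 0) of each gene list in each of the 5 libraries, with the number of genes in parentheses and a separate scale in each panel. The interferon-stimulated genes range from 276 CPM in GFP 3 to 535 CPM in GFP 1, and OE2 (SRF-OE 2) and GFP 1 are the highest libraries for them and for the endothelial and leukocyte markers.

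Other genes of the pathway were taken from a second list, of which 100 were in the table and 78 were tested in the 5 libraries. Of these, 0 were called higher and 0 lower. At an unadjusted p under 0.05, 4 had higher levels (5.13%, against 6.35% of all genes), namely Cd74 and, outside the rule for named genes, Cxcl10, H2-Ab1 and Tapbpl, and 6 had lower levels (7.69%, against 7.59%), among them Ifngr2 and Mavs. Without the library labelled GFP1, 75 were tested, 2 were called higher (Cd74 and Irf5, 2.67% against 1.98% of all genes) and 1 lower (Mavs, 1.33% against 0.97%). The shares called were near those of all genes.

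The 12 interferon ligand genes had next to no reads. Each was under 1 CPM in every library, none was tested, and Ifne, Ifnk and Ifnz had 0 reads in all 5. Ifnb1, the gene of interferon beta, had 0 CPM in OE2, 0.0874 CPM in OE3, 0.0475 CPM in the library labelled GFP1, 0.458 CPM in GFP2 and 0.552 CPM in GFP3. The more frequent reads of Ifnb1 were thus in the libraries in which the interferon-stimulated genes were lowest. Whether interferon made by cells outside the sort reached these CMs was not measured.

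The receptor genes were well above the ligands. Ifnar1 and Ifnar2, the chains of the type I receptor, had from 37.3 to 48.9 CPM and from 24.8 to 37.1 CPM, with log2 fold changes of 0.02 (SE 0.17) and -0.27 (SE 0.16), or -0.01 and -0.32 over the 4 libraries. Ifngr1, the ligand-binding chain of the type II receptor, ranged from 33.8 to 45.5 CPM (log2 fold change 0.06, SE 0.18, or 0.22 over the 4 libraries). Its partner Ifngr2 had 261 and 249 CPM in SRF-OE and 312, 392 and 406 CPM in GFP. The groups did not overlap for Ifngr2, and its log2 fold change was -0.53 (SE 0.16, adjusted p = 0.35, edgeR), or -0.64 (SE 0.12, adjusted p = 0.0518) in the 4 libraries. The chains of the type III receptor, Ifnlr1 and Il10rb, had log2 fold changes of 0.41 (SE 0.25) and -0.52 (SE 0.25), or 0.41 and -0.69 over the 4 libraries.

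Mavs, the mitochondrial adaptor through which RIG-I and MDA5 signal, had 78.3 and 73.2 CPM against 96.8, 129 and 152 CPM. Its log2 fold change was -0.73 (SE 0.20, adjusted p = 0.35, edgeR) and -0.88 (SE 0.13, adjusted p = 0.0473) in the 4 libraries. The sensors Ifih1 and Ddx58 had positive log2 fold changes in the same libraries. That of Ddx58 over the 5 libraries (0.26, SE 0.38) was smaller than its SE, so its sign there is not settled.

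Cd74, the invariant chain of MHC class II, had 4.22 and 5.11 CPM in SRF-OE and 0.950, 1.05 and 0.710 CPM in GFP. In this gene the library labelled GFP1 lay with GFP2 and GFP3, and the log2 fold change was 2.34 (SE 0.33, adjusted p = 0.35, edgeR) and 2.37 (SE 0.38, adjusted p = 0.0482) without it. Irf5, a factor activated by Toll-like receptors, had 4.97 and 17.6 CPM in SRF-OE, 12.3 CPM in the library labelled GFP1 and 0.458 and 0.631 CPM in GFP2 and GFP3. Without the library labelled GFP1 its log2 fold change was 4.41 (SE 0.73, adjusted p = 0.0486), against 1.32 (SE 1.27, adjusted p = 0.63) in all 5. All 3 calls, for Cd74, Irf5 and Mavs, were lost with upper quartile scaling, and that for Mavs also with at least 10 counts in every library, a filter that leaves Cd74 and Irf5 untested, with 9 and 8 reads in GFP3.

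A further 3 genes, chosen after their values were seen, had lower levels in both SRF-OE libraries, as Igtp did. Irgm2 had 11 and 10.2 CPM in SRF-OE and 18.6, 20.4 and 20 CPM in GFP, a log2 fold change of -0.89 (SE 0.16), or -0.93 over the 4 libraries. Dtx3l and Parp9, which encode partners in ubiquitin and ADP-ribose transfer, had log2 fold changes of -0.81 (SE 0.16) and -0.50 (SE 0.14), or -0.85 and -0.53 over the 4 libraries. For each of the 3 the groups did not overlap, the library labelled GFP1 lay with or next to GFP2 and GFP3, and the adjusted p was 0.35 in the 5 libraries (edgeR).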

How the data were processed

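Transcript levels of sorted CMs were compared between SRF-OE and GFP. The raw read counts per gene were deposited by the authors in 1 table, after alignment to mm10 by STAR. The submitters' processing notes also name CASAVA 1.8, STAR 2.5.3a, featureCounts and Subread 1.5.2. The settings for strand and multiply mapped reads are not given in the sources used here, so overlapping and near-identical genes are uncertain. The deposited column headed for SRF-OE replicate 1 holds values of another kind, gene lengths: it has 0 zeros, and 73.8% of 20929 genes lie within 5% of an annotated transcript or exon union. It was used for RPKM only. Of 6 labelled libraries 5 were used, under the names in the header, and no value column stayed unused (0). Since no name in the header stands for the lengths, the names may be displaced by 1 column, which would make the columns 3 SRF-OE and 2 GFP libraries, and this could not be settled here. The design was written for all libraries with counts, 2 in SRF-OE and 3 in GFP. Total counts ranged from 14137433 to 23159631.

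Counts were fitted in edgeR 4.0.16 (R 4.3.3) with filterByExpr, TMM, glmQLFit and glmQLFTest over all genes, with Benjamini-Hochberg adjustment and a threshold of 0.05. Ratios between libraries used 0.5 CPM as pseudocount. Exact permutation p-values have a floor of 0.1 for 2 libraries against 3 and of 0.33 for 2 against 2, so none was run. Alternatives were DESeq2 1.42.0, its size factors, upper quartile scaling, no filter, the replicate number as a block, a minimum of 10 counts per library, and leaving out each library. Those on the 4 libraries without the library labelled GFP1 were added after the data were seen. The main edgeR fit and the DESeq2 fit were first checked on simulated data. The other alternatives were not checked in this way. Promoter windows are from RefSeq on GRCm38.p6 and overlaps of genes from the GRCm38 annotation.

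The gene list and the pathway and marker lists were chosen with earlier results of these data known. Named are every gene of the list and Srf, from the pathway lists the called genes, the receptors and the ligands (as counts, with Ifnb1 and those without reads), and from the marker lists Ptprc, Csf1r, Adgre1, Cd68 and Pecam1. Ifnb1, Ifne, Ifnk, Ifnz, Cxcl10, H2-Ab1, Tapbpl, Irgm2, Dtx3l, Parp9 and Xist were chosen after their values were seen, and Rnf31 is named for its overlap. 1 gene that the rule names is not reported here.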

Additional observations from a re-analysis of the deposited data

How the results depend on the processing

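With the 5 libraries as labelled, upper quartile scaling, the size factors of DESeq2, dropping the filter and a minimum of 10 counts per library each left 0 interferon-stimulated genes called. Of 200 log2 fold changes recomputed for these genes with every library kept, 4 changed sign, all with the replicate number as a block. DESeq2 called 1 other pathway gene lower (Ifngr2) and, over all genes, 11 higher and 213 lower.

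The library titles give SRF-OE and GFP the shared numbers 2 and 3. With the replicate block, edgeR called 3 of the genes higher (12 at an unadjusted p under 0.05), 3 other pathway genes higher and 3 lower, and over all genes 582 higher and 432 lower, and the log2 fold change of Srf was 2.78. Ifit1 turned to 1.06, Ifit3 to 0.63, Mx2 to -0.16 and H2-K1 to 0.16. Deviations of libraries with the same number correlated at 0.396 (number 2) and -0.074 (number 3) over the 5 libraries. Over the 4 libraries the correlation was 0.217, a value that is the same for both numbers by construction. These values do not settle whether the numbers pair the libraries, and the numbers were not taken to pair them. Xist, a transcript of female cells, was at 147 CPM in OE2 and 88.8 CPM in GFP2 and between 0.380 and 0.743 CPM in the others. The libraries of each group thus did not all come from the same animals. In both groups number 2 was high in Xist and number 3 was low, so the block cannot be told apart from sex. Any difference between OE2 and OE3 is likewise one between a library high and a library low in Xist. The library labelled GFP1 has no partner and adds nothing to the fit with the block.

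Leaving out each library in turn gave 0 to 2 genes called higher, 0 to 11 higher and 1 to 2 lower at an unadjusted p under 0.05, a median log2 fold change from -0.13 (without OE2) to 0.64, 0 to 2 other pathway genes higher and 0 to 1 lower, 0 to 265 of all genes higher and 0 to 130 lower, and an Srf log2 fold change from 1.13 to 2.87. The highest counts of calls were those without the library labelled GFP1. Of 169 single-gene values 35 changed sign, 15 of them without OE2, a fit that leaves 1 library against 3 and assumes that it varies like the others. Those that changed sign ranged from -0.13 to 0.37 (Stat2), -0.35 to 0.54 (Irf1), -0.14 to 0.46 (Irf7), -0.66 to 0.22 (Irf9), -0.05 to 1.51 (Isg15), -0.74 to 1.05 (Ifit1), -0.58 to 0.63 (Ifit3), -0.20 to 0.80 (Mx2), -0.87 to 0.62 (Oas1a), -0.61 to 0.85 (Rsad2), -0.65 to 0.07 (Usp18), -0.50 to 0.58 (Bst2). For the rest of them the ranges were -0.18 to 0.95 (Ifitm3), -0.18 to 0.87 (Gbp7), -0.06 to 0.20 (Irgm1), -0.39 to 0.97 (Psmb8), -0.17 to 0.65 (Psmb9), -0.02 to 0.61 (Tap1), -0.03 to 0.91 (B2m), -0.22 to 0.16 (H2-K1), -0.01 to 0.73 (H2-D1), -0.39 to 0.63 (Xaf1), -0.59 to 0.10 (Parp14).

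Without the library labelled GFP1, the genes called higher were 2, and 6 with DESeq2, 3 with the block, 10 with no filter (with Igtp, 1 lower), and 0 with upper quartile scaling or at least 10 counts. Other pathway genes called higher and lower were 4 and 5 with DESeq2, 7 and 5 with no filter, and 3 and 3 with DESeq2's size factors or the block. They were 0 and 0 with upper quartile scaling or at least 10 counts, a filter that leaves Cd74 and Irf5 untested. For the 4 libraries, shares over all genes are given here only for the main edgeR fit and for DESeq2. The counts of the other fits therefore say nothing particular to these lists. The cause of these moves was not tested. Genes with under 20 reads per library, such as Mx1, Mx2 and Oas1a, are limited by depth.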
